A study of Homo sapiens with 12 samples.

Results

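Dishevelled and the beta-catenin destruction complex were followed through 10 genes, DVL1, DVL2, DVL3, AXIN1, APC, GSK3A, GSK3B, CSNK1A1, CTNNB1 and BTRC. The genes were listed by name, with earlier results of these data known, so counts set against all probe sets are not free of selection. Every probe set annotated with exactly 1 of these symbols was taken, which gave 25 of the 22215 probe sets tested and 10 of 11963 genes. CSNK1A1 had 7 probe sets, APC 5, BTRC 3, and DVL2, DVL3 and GSK3A 2 each. DVL1, AXIN1, GSK3B and CTNNB1 had 1 each. Probe sets of a gene read the same gene and are not replicates of each other.

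The cells were K562, an established human leukemia line, and 12 arrays measured their RNA in 4 groups of 3. Empty vector cells were nucleofected with the pEGFP-C2 plasmid and overexpression cells with the same plasmid carrying human CXXC5, both transiently. Scrambled shRNA cells and knockdown cells were stably infected with lentiviral pLKO constructs, the latter with shRNA against CXXC5. A pair of CXXC5 shRNA clones is named without saying which knockdown array holds which, and nothing says that replicates were separate cultures. The p-values therefore describe only how far these arrays spread, which may be technical. All 4 groups received Wnt3a protein at 100 ng/ml without serum and were harvested after 8 h, so no comparison measures the response to Wnt3a. No probe set was paired with CXXC5, and the groups are called by their labels without a check of its level.

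Without a Wnt signal, AXIN1 and APC hold beta-catenin, the product of CTNNB1, beside casein kinase 1 alpha (CSNK1A1) and the GSK3 kinases (GSK3A, GSK3B), which phosphorylate it. The ubiquitin ligase receptor BTRC then binds the phosphorylated protein and marks it for the proteasome. When Wnt binds its receptors, a Dishevelled protein (DVL1, DVL2 or DVL3) recruits Axin to the membrane, the complex is inhibited, and beta-catenin enters the nucleus. CXXC5, a zinc finger protein with affinity for CpG-rich DNA, is known to bind Dishevelled and to dampen this signal. Much of this control acts on protein, which the arrays do not measure.

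Levels are given in log2 units, 1 value per probe set and array, and the number of arrays limits their precision. Replicates of a group correlated at 0.996 to 0.998. Scrambled shRNA replicate 3 stood apart in its GAPDH control probe sets, whose 3' and 5' ends differed by 0.87 log2, against 0.227 to 0.335 on the other 11 arrays. Results that use this array are therefore also given without it where that matters. The erythroid markers of K562 that were measured lay between the 58.5th (EPOR) and the 99.3rd (TFRC) percentile of mean level over genes. The 3 measured B cell markers lay at or below the 27th percentile. Of the T cell markers CD3D was at the 91.4th percentile and the other 4 at or below the 36.6th. EPCAM and KRT19 of the epithelial markers were at the 93.4th and 91.5th, and CDH1 and KRT5 at the 17th and 22.7th. Of the fibroblast markers COL1A1 was at the 57.3rd percentile, close to EPOR, and the other 3 at or below the 33.7th.

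In the fit over all probe sets, AXIN1 and APC passed in both comparisons, in opposite directions from each other. With CXXC5 overexpression AXIN1 rose 1.23-fold and APC fell 1.24-fold at its brightest probe set. With knockdown AXIN1 fell 1.4-fold, and APC rose at 3 of its 5 probe sets, by 1.34-fold to 1.63-fold. In all, 2 of 25 probe sets passed with overexpression, against 4.19% of all probe sets (limma, adjusted p under 0.05). They were 1 that rose, against 2.27% of all, and 1 that fell, against 1.92%. With knockdown 4 of 25 passed, against 9.83% of all probe sets, 3 that rose, against 6.13%, and 1 that fell, against 3.70%. All 3 that rose were probe sets of APC. With 1 probe set per gene, CTNNB1 also fell with overexpression, which made 3 of 10 genes, against 6.98% of all genes. With knockdown DVL1 and DVL2 then also fell, which made 1 gene that rose and 3 that fell, 4 of 10 against 14.0%, so the direction of most calls turned. The median change over the 25 was -0.052 log2 with overexpression and 0.141 with knockdown, where that of all probe sets was -0.001 and -0.007. CSNK1A1 and APC supply 12 of the 25, and over the 10 genes by brightest probe set the medians were -0.005 and -0.028, with the opposite sign for knockdown.

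**Figure D1:**
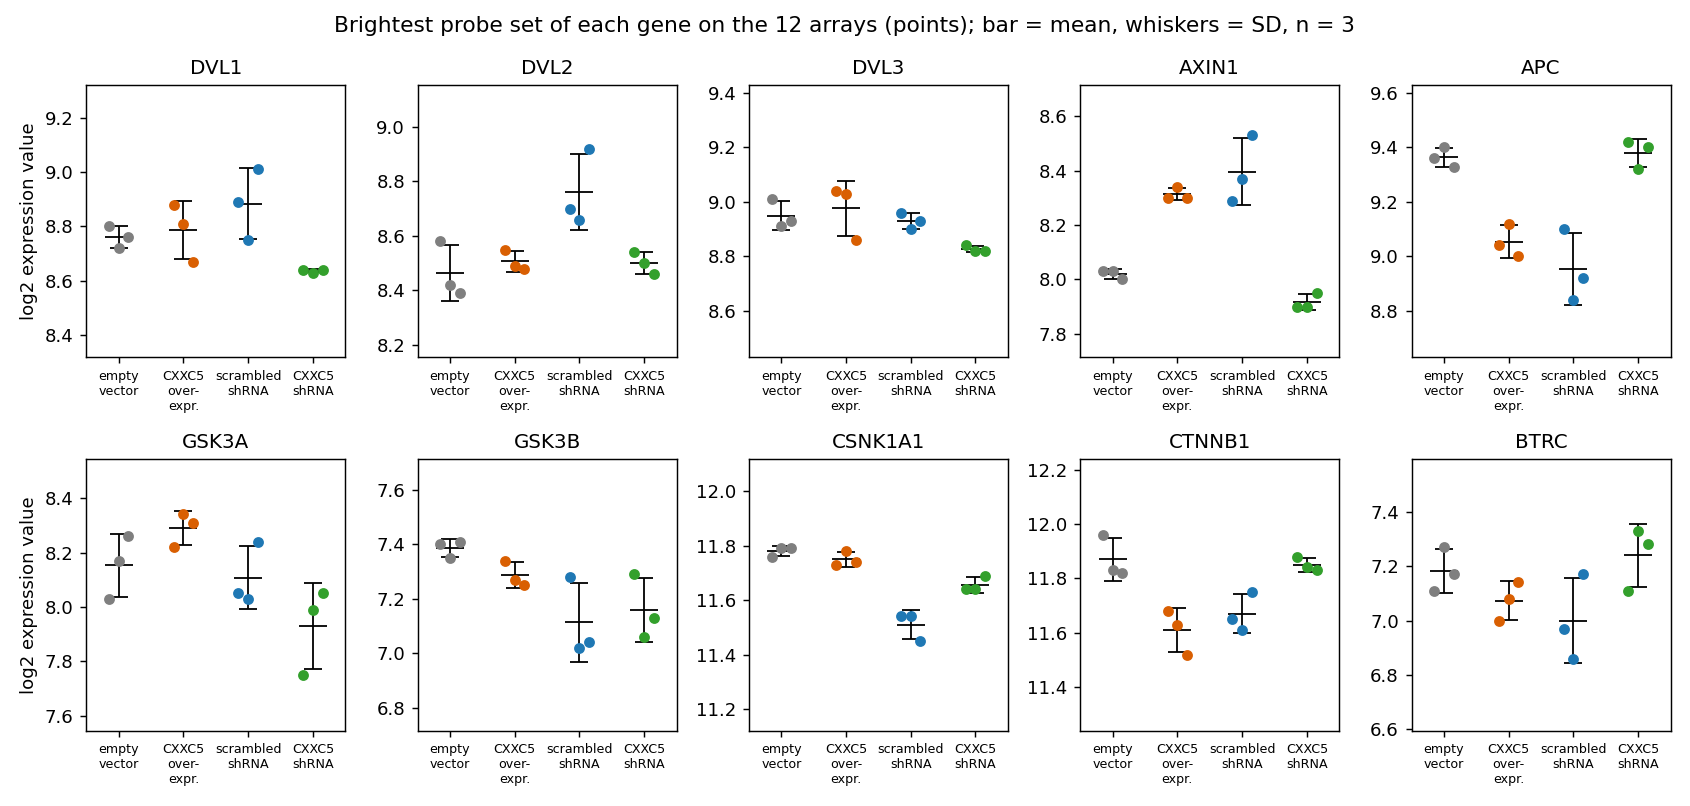
Log2 expression value (vertical axis, each panel 1 log2 unit high) of the brightest probe set of each gene in the 4 groups, with 1 point per array, the group mean as a bar and the SD as whiskers (n = 3). AXIN1 is high and APC and CTNNB1 are low on the overexpression and scrambled shRNA arrays, while DVL3 shows a range of group means of 0.15.

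AXIN1, a scaffold of the complex, stood at 8.03, 8.03 and 8.00 on the empty vector arrays and at 8.30, 8.34 and 8.30 with overexpression. It stood at 8.29, 8.37 and 8.53 with scrambled shRNA and at 7.90, 7.90 and 7.95 with knockdown. The groups of either comparison did not overlap, and the knockdown arrays lay below all others. The change with overexpression was 0.29 log2 (SE 0.0656, 95% interval 0.15 to 0.44, adjusted p = 0.0268 by limma). The change with knockdown was -0.48 (SE 0.0656, interval -0.62 to -0.34, adjusted p = 0.000908). The overexpression call ended when any 1 of its 6 arrays was left out (adjusted p 0.0644 to 0.0994), with the change kept at 0.28 to 0.30. The knockdown call held without each array in turn, and without scrambled shRNA replicate 3 the change was -0.42 (adjusted p = 0.0015).

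APC, the large scaffold mutated in most colon cancers, was brightest at probe set 203525_s_at. Its values were 9.36, 9.40 and 9.33 with empty vector, 9.04, 9.12 and 9.00 with overexpression, 9.10, 8.84 and 8.92 with scrambled shRNA and 9.42, 9.32 and 9.40 with knockdown. The empty vector and knockdown arrays overlapped each other and lay above all the rest. The change with overexpression was -0.31 (SE 0.0735, adjusted p = 0.0363), which was lost on leaving out any single array of the 6 (adjusted p 0.0673 to 0.141) and with the mean of the 5 probe sets (adjusted p = 0.108). The change with knockdown was 0.42 (SE 0.0735, adjusted p = 0.00386), and it held without each array in turn, at 0.41 without scrambled shRNA replicate 3 (adjusted p = 0.0127).

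The other 4 APC probe sets had the same signs in both comparisons but differed in size and spread. Probe set 203527_s_at read 6.83, 7.00 and 6.97 with empty vector, 6.65, 6.59 and 6.73 with overexpression, 6.26, 6.16 and 6.13 with scrambled shRNA and 6.71, 6.85 and 6.65 with knockdown. Its knockdown arrays lay above all scrambled shRNA arrays, by 0.56 log2 on average (SE 0.0755, adjusted p = 0.000896), while its overexpression difference of -0.28 did not pass (adjusted p = 0.0616). Probe set 215310_at stood at -0.39 with overexpression (adjusted p = 0.322) and rose by 0.71 with knockdown (adjusted p = 0.0328). That call ended without any of the scrambled shRNA arrays or knockdown replicate 1 or 2 (adjusted p up to 0.124). Probe set 203526_s_at differed by 0.72 with knockdown (adjusted p = 0.0606), or by 0.39 without scrambled shRNA replicate 3, which read 5.62 there against 6.74 and 6.47 on the other scrambled arrays. It passed without scrambled shRNA replicate 1 (adjusted p = 0.0167). The dimmest, 216933_x_at, at the 12.8th percentile of mean level, stood at -0.13 and 0.23 (adjusted p = 0.668 and 0.288).

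The promoters of the scaffold genes and of CTNNB1 are printed because these genes separated the groups of arrays and because CXXC5 has affinity for CpG sites. Each is the 250 bases before a RefSeq gene start (GRCh38.p14), read 5' to 3' on the gene's strand, in lower case with every CG in capitals. The AXIN1 window is chr16:352724-352973 on the minus strand. The APC windows, before different starts of the gene, are chr5:112707248-112707497 and chr5:112737635-112737884, and the CTNNB1 window is chr3:41199255-41199504, all on the plus strand.
AXIN1: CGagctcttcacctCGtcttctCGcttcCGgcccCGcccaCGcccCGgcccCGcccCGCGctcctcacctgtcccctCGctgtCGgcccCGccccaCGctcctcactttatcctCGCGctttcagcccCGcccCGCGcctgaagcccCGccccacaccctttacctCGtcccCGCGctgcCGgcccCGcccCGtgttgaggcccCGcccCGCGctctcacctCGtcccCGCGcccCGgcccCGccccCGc
APC, upstream start: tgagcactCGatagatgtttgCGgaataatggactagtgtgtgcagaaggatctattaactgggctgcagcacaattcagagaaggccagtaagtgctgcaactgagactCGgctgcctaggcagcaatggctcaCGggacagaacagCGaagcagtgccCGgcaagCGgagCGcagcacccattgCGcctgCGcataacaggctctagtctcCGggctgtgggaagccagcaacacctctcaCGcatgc
APC, downstream start: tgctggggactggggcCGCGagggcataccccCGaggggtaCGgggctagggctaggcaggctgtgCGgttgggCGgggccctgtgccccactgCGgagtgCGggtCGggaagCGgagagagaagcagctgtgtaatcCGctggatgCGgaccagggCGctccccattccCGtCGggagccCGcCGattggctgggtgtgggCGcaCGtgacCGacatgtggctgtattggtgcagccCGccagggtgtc
CTNNB1: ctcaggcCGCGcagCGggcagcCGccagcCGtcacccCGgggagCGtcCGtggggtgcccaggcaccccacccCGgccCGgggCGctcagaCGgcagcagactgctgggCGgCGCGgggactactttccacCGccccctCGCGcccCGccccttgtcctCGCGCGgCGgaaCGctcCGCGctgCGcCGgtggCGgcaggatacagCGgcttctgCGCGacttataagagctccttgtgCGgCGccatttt

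The letters CG, which read the same on both strands, occurred 35 times in the AXIN1 window, 12 and 21 times in the APC windows and 34 times in the CTNNB1 window. Of 35116 windows of this length, 93.9% held at least 1 CG, and the median was 11. At least as many as in AXIN1 were found in 5.8% of them, as in CTNNB1 in 6.84%, and as in the APC windows in 48.5% and 30.2%. Windows matched for 9 of the 10 genes, 11 windows in all, held from 9 (a CSNK1A1 start) to 49 (DVL1) CG sites, with a median of 28. A CG count describes the sequence and says nothing of binding.

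The Dishevelled genes, which encode the proteins that CXXC5 binds, did not pass in either comparison in the fit over all probe sets. DVL1 read 8.80, 8.72 and 8.76 with empty vector, 8.88, 8.81 and 8.67 with overexpression, 8.89, 8.75 and 9.01 with scrambled shRNA and 8.64, 8.63 and 8.64 with knockdown. The knockdown arrays were the lowest and did not overlap any other group, and the scrambled arrays spread widely. The DVL1 difference was 0.03 with overexpression (interval -0.14 to 0.19, adjusted p = 0.914) and -0.25 with knockdown (interval -0.41 to -0.08, adjusted p = 0.0665). The latter passed without scrambled shRNA replicate 2 (adjusted p = 0.0367).

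DVL2 at its brighter probe set read 8.58, 8.42 and 8.39 with empty vector, 8.55, 8.49 and 8.48 with overexpression, 8.70, 8.66 and 8.92 with scrambled shRNA and 8.54, 8.50 and 8.46 with knockdown. Here the scrambled arrays stood above all others, and the remaining groups overlapped. The difference was 0.04 with overexpression (interval -0.13 to 0.21, adjusted p = 0.853) and -0.26 with knockdown (interval -0.43 to -0.09, adjusted p = 0.055). Without scrambled shRNA replicate 3 the knockdown difference was -0.18 for DVL1 and for DVL2 (adjusted p = 0.176 and 0.141). With 1 probe set per gene and adjustment over 11963 genes, DVL1 and DVL2 passed at -0.25 and -0.26 (adjusted p = 0.0476 and 0.0388). Of 9 alternatives that left out no single array, DVL1 passed with knockdown in 5 and DVL2 in 7. For DVL2 these were fits of its brighter probe set, except 1 that used the mean of both its probe sets. Of the 6 fits that left out 1 array, DVL1 and the brighter DVL2 probe set passed in 1 and 0. The dimmer DVL2 probe set stood at -0.30 with knockdown (adjusted p = 0.0794).

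DVL3 had the smallest range of group means of the Dishevelled genes at its brighter probe set, with 8.95 ± 0.05, 8.98 ± 0.10, 8.93 ± 0.03 and 8.83 ± 0.01 (SD, n = 3) in empty vector, overexpression, scrambled shRNA and knockdown. The differences were 0.02 with overexpression (interval -0.12 to 0.17) and -0.10 with knockdown (interval -0.24 to 0.04; adjusted p = 0.906 and 0.365 by limma). The knockdown arrays lay below all others. The dimmer DVL3 probe set stood at 0.23 with overexpression (adjusted p = 0.218).

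The kinases of the complex did not pass in either comparison in that fit. GSK3A at its brighter probe set stood at 0.13 with overexpression and -0.18 with knockdown (adjusted p = 0.528 and 0.261), and GSK3B at -0.10 and 0.05 (adjusted p = 0.607 and 0.777). CSNK1A1, the kinase that primes beta-catenin for GSK3, had its brightest probe set at the 96.1st percentile. That probe set read 11.76, 11.79 and 11.79 with empty vector, 11.73, 11.78 and 11.74 with overexpression, 11.54, 11.54 and 11.45 with scrambled shRNA and 11.64, 11.64 and 11.69 with knockdown. The scrambled arrays were lowest and the knockdown arrays next, both apart from the plasmid groups. The CSNK1A1 difference was -0.04 with overexpression (interval -0.16 to 0.09, adjusted p = 0.82) and 0.15 with knockdown (interval 0.03 to 0.27, adjusted p = 0.111). Its 7 probe sets ranged from -0.25 to 0.08 with overexpression and from -0.08 to 0.50 with knockdown. The highest of these, 206562_s_at, became 0.20 without scrambled shRNA replicate 3, which read 8.80 there against 9.60 and 9.75.

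CTNNB1, which encodes beta-catenin, was bright, at the 96.3rd percentile of mean level. It read 11.96, 11.83 and 11.82 with empty vector, 11.68, 11.63 and 11.52 with overexpression, 11.65, 11.61 and 11.75 with scrambled shRNA and 11.88, 11.84 and 11.83 with knockdown. The overexpression and scrambled arrays overlapped each other and lay below all empty vector and knockdown arrays. With overexpression the difference was -0.26 (SE 0.0682, interval -0.41 to -0.11, adjusted p = 0.0562), and it passed with 1 probe set per gene (adjusted p = 0.0353). That rule was 1 of 7 alternatives, out of 9 that left out no single array, in which it passed. It passed in 0 of the 6 fits over all probe sets that left out 1 array (adjusted p 0.0699 to 0.198). With knockdown the difference was 0.18 (SE 0.0682, interval 0.03 to 0.33, adjusted p = 0.125), or 0.22 without scrambled shRNA replicate 3 (adjusted p = 0.0796).

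BTRC, the substrate receptor of the ligase, had 3 probe sets that disagreed. The brightest, 204901_at, stood at -0.11 with overexpression and 0.24 with knockdown (adjusted p = 0.601 and 0.114). Without scrambled shRNA replicate 3 the knockdown value became 0.33 and passed (adjusted p = 0.0382). Probe set 222374_at stood at -0.30 with overexpression and -0.24 with knockdown (adjusted p = 0.0735 and 0.0989), so its sign with knockdown was the opposite of that of the brightest. Probe set 216091_s_at stood at -0.21 and 0.14 (adjusted p = 0.196 and 0.309).

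**Figure D2:**
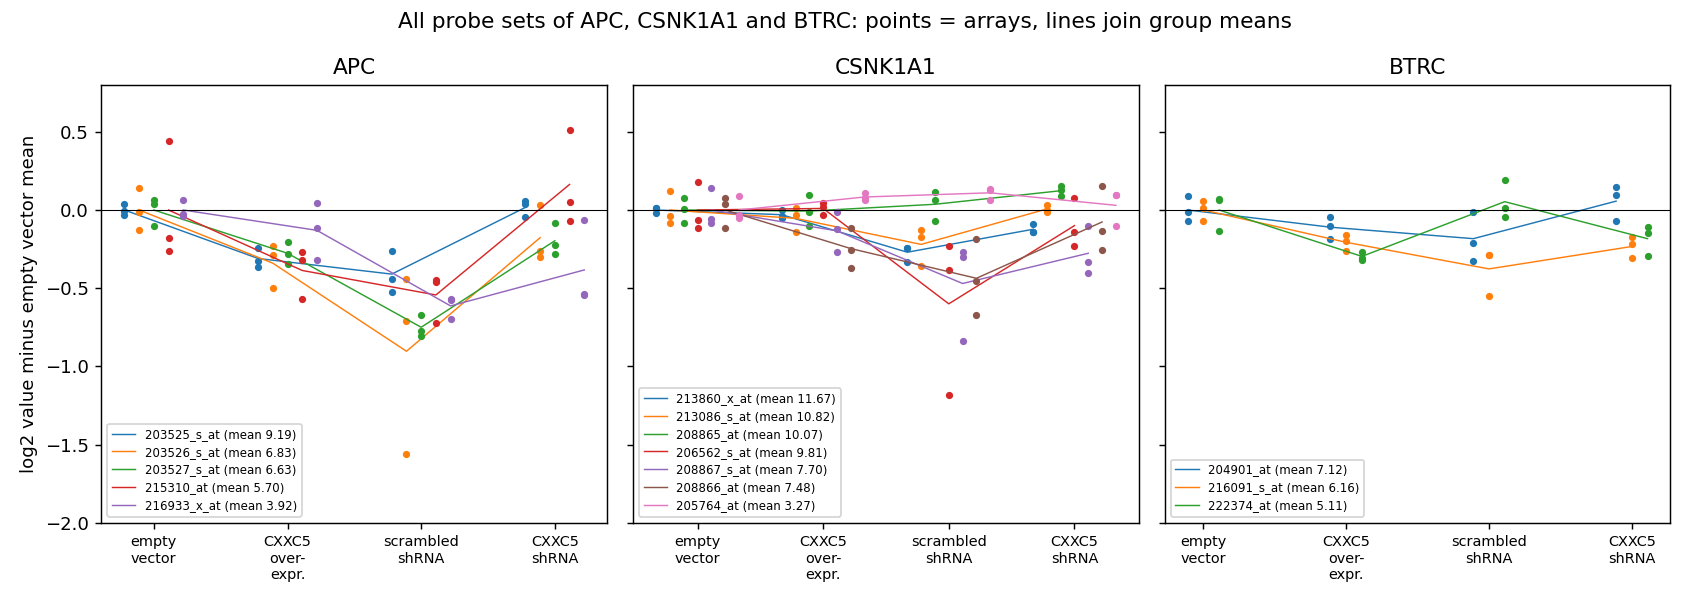
Log2 value minus the empty vector mean (vertical axis) for every probe set of APC, CSNK1A1 and BTRC in the 4 groups, with 1 point per array and lines joining group means. All 5 APC probe sets are lowest with scrambled shRNA, where 1 array of 203526_s_at and 1 of CSNK1A1 206562_s_at lie far below the rest, and BTRC 222374_at departs from the other BTRC probe sets.

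Across the 25 probe sets, the groups did not overlap for 10 with overexpression, against 24.7% of all probe sets, and for 14 with knockdown, against 29.2%. The overexpression and knockdown comparisons share no array, and the sign was opposite for 23 of the 25 probe sets, where 68.0% of all probe sets had opposite signs. By brightest probe set it was opposite for 10 of 10 genes, against 69.6% of all genes. The exceptions among probe sets were CSNK1A1 206562_s_at and BTRC 222374_at. Several of the signs rest on differences near 0. With overexpression DVL1, DVL2, DVL3 and CSNK1A1 stood at 0.03, 0.04, 0.02 and -0.04 at the brightest probe set, with intervals that included 0. Leaving out 1 array took DVL1 and DVL3 as low as -0.02 and -0.01, which turned the sign.

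**Figure D3:**
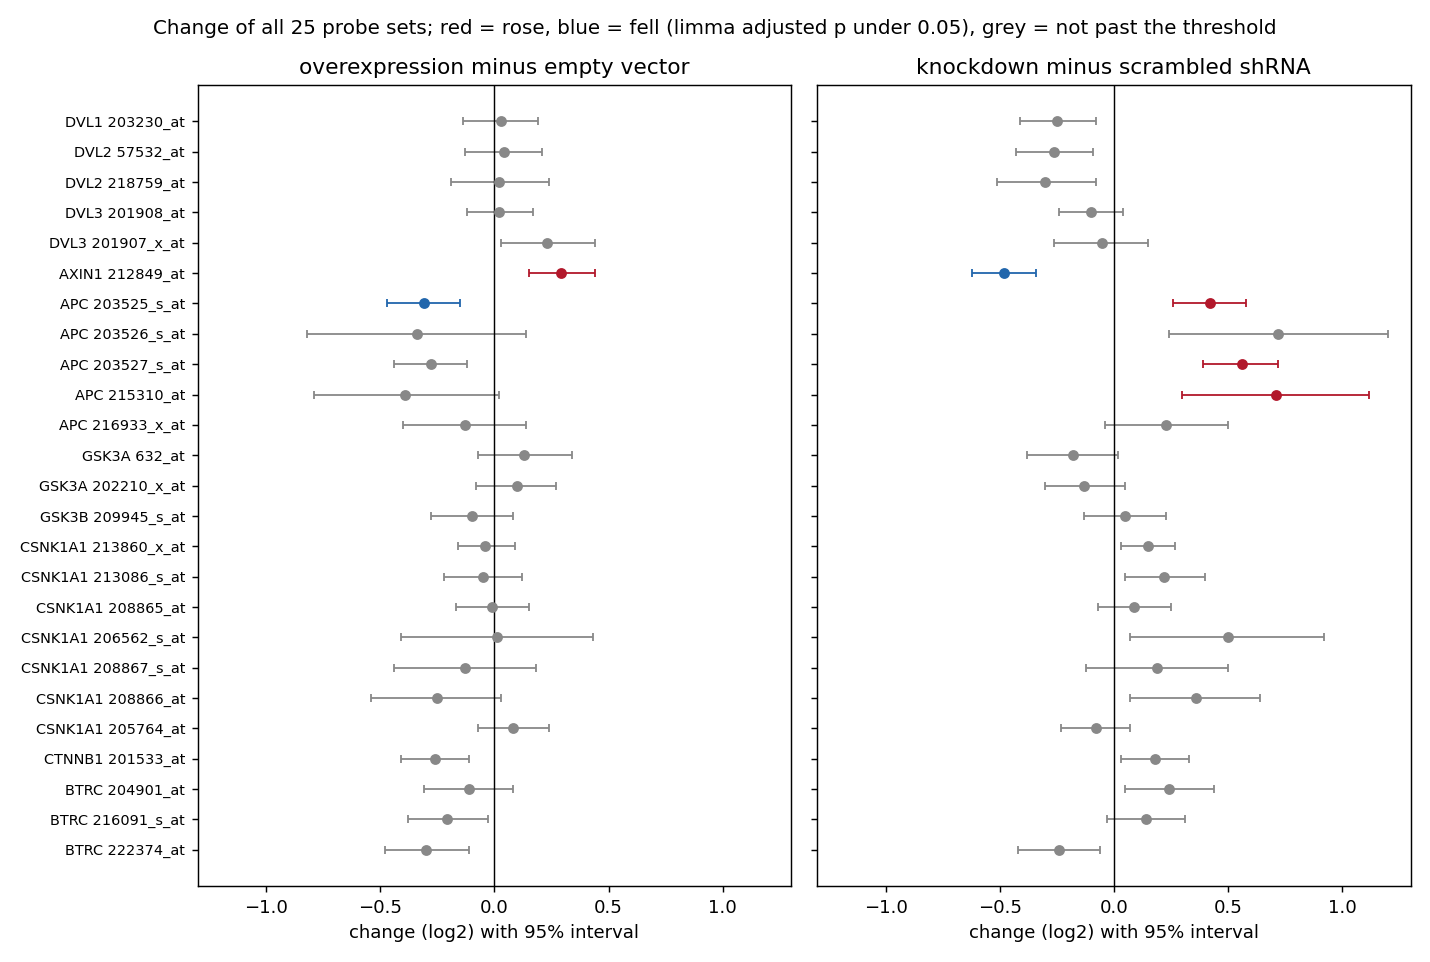
Change in log2 with its 95% interval (horizontal axis) for each of the 25 probe sets (vertical axis) with overexpression, left, and knockdown, right; red marks a rise and blue a fall past the threshold. AXIN1 and APC lie on opposite sides of 0 and trade sides between the panels, 2 probe sets are coloured on the left and 4 on the right.

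The difference of the effects, overexpression minus its control less knockdown minus its control, passed for 7 of 25 probe sets, against 14.9% of all probe sets. It was above 0 for 1 of them, against 5.82% of all, and below 0 for 6, against 9.10%. It was 0.78 for AXIN1 (SE 0.0928, adjusted p = 0.000197), -0.73 for APC at its brightest probe set (SE 0.104, adjusted p = 0.000638) and -0.44 for CTNNB1 (SE 0.0965, adjusted p = 0.00919). These 3 held without each of the 12 arrays in turn, with adjusted p of at most 0.0259. The others were 3 further APC probe sets, from -1.09 to -0.84, and CSNK1A1 208866_at, at -0.61 (adjusted p = 0.0452). Of these, 203526_s_at (adjusted p = 0.0392) and CSNK1A1 208866_at passed in 3 and 4 of the 12 fits that left out 1 array. DVL1 and DVL2 stood at 0.27 and 0.31 (adjusted p = 0.118 and 0.0864), so a difference between the effects on them was not shown.

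The members differed most often between the control groups, scrambled shRNA and empty vector, which also differ in delivery, so construct and delivery cannot be told apart. Of 25 probe sets, 15 passed, against 27.7% of all probe sets, and 15 did not overlap, against 43.5%. With scrambled shRNA 3 were higher, against 13.4% of all, and 12 lower, against 14.3%. AXIN1 was higher by 0.38 (adjusted p = 0.00172), DVL2 by 0.30 (adjusted p = 0.0145) and GSK3A 202210_x_at by 0.25 (adjusted p = 0.0392). All 5 APC probe sets were lower, with differences from -0.90 to -0.41. The -0.90, at 203526_s_at, was -0.57 without scrambled shRNA replicate 3 (adjusted p = 0.0118). CSNK1A1 was lower at 4 of 7 probe sets, with -0.28 at the brightest (adjusted p = 0.00369). GSK3B stood at -0.27 (adjusted p = 0.0275), CTNNB1 at -0.20 (adjusted p = 0.0462) and BTRC 216091_s_at at -0.37 (adjusted p = 0.00526), all lower. Without scrambled shRNA replicate 3 the calls numbered 10, and without empty vector replicate 2 or 3 they numbered 7 and 8. Over the fits that left out 1 array, 3975 to 5796 of all probe sets passed, the fewest without empty vector replicate 2. The calls of AXIN1, of all APC probe sets but 215310_at, of CSNK1A1 213860_x_at and of BTRC 216091_s_at held without each array in turn, and each of the others ended without at least 1 array.

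Knockdown and empty vector arrays differed for 0 of 25 probe sets by limma's adjusted p, against 3.24% of all probe sets, and for 6 at an unadjusted p under 0.05, where 4654 of all 22215 did. The groups did not overlap for 9, against 28.4%. AXIN1 stood at -0.11 (interval -0.25 to 0.04), APC at 0.01 (interval -0.15 to 0.17) and CTNNB1 at -0.02 (interval -0.17 to 0.13). This comparison shares arrays with each of the others and, like the last, sets lentiviral against nucleofected cells. Array weights gave 2 calls here, APC 216933_x_at at -0.47 and BTRC 216091_s_at at -0.27 (adjusted p = 0.0223 and 0.0237), and APC 216933_x_at passed without knockdown replicate 1 (adjusted p = 0.0242).

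For AXIN1 the order from high to low was scrambled shRNA, overexpression, empty vector and knockdown. Its scrambled shRNA and overexpression arrays overlapped, and the other neighbours were apart. For APC at its brightest probe set the order was knockdown, empty vector, overexpression and scrambled shRNA, with a gap between empty vector and overexpression and overlap elsewhere. For CTNNB1 it was empty vector, knockdown, scrambled shRNA and overexpression, with a gap between knockdown and scrambled shRNA alone. For AXIN1, APC (203525_s_at and 215310_at) and CTNNB1 the 6 overexpression and scrambled arrays did not overlap the 6 others, which makes 4 of 25 probe sets against 6.05% of all. For 215310_at the highest of the former read 5.62 and the lowest of the latter 5.63. The range of group means was 0.48 log2 for AXIN1 and 0.42 to 0.90 for the APC probe sets, where the median over all probe sets was 0.25. The 0.90, at 203526_s_at, lies between empty vector and scrambled shRNA, and scrambled shRNA minus empty vector was -0.57 without scrambled shRNA replicate 3. For DVL1 and CTNNB1 it was 0.25 and 0.26, close to that median.

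Scrambled shRNA replicate 3 moved single probe sets far and left the number of calls with knockdown at 4 of 25. Without it AXIN1, APC 203525_s_at and APC 203527_s_at (0.53, adjusted p = 0.00396) passed as before, and BTRC 204901_at passed in place of APC 215310_at (0.75, adjusted p = 0.0673). Among probe sets that had not passed, APC 203526_s_at and CSNK1A1 206562_s_at moved most, as given above. CSNK1A1 208867_s_at went from 0.19 to 0.01, CSNK1A1 208865_at from 0.09 to 0.03 and BTRC 216091_s_at from 0.14 to 0.05. GSK3A went from -0.18 to -0.11 at 632_at and from -0.13 to -0.06 at 202210_x_at, and GSK3B from 0.05 to 0.01. The part of the GAPDH control difference in these values was not tested.

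**Figure D4:**
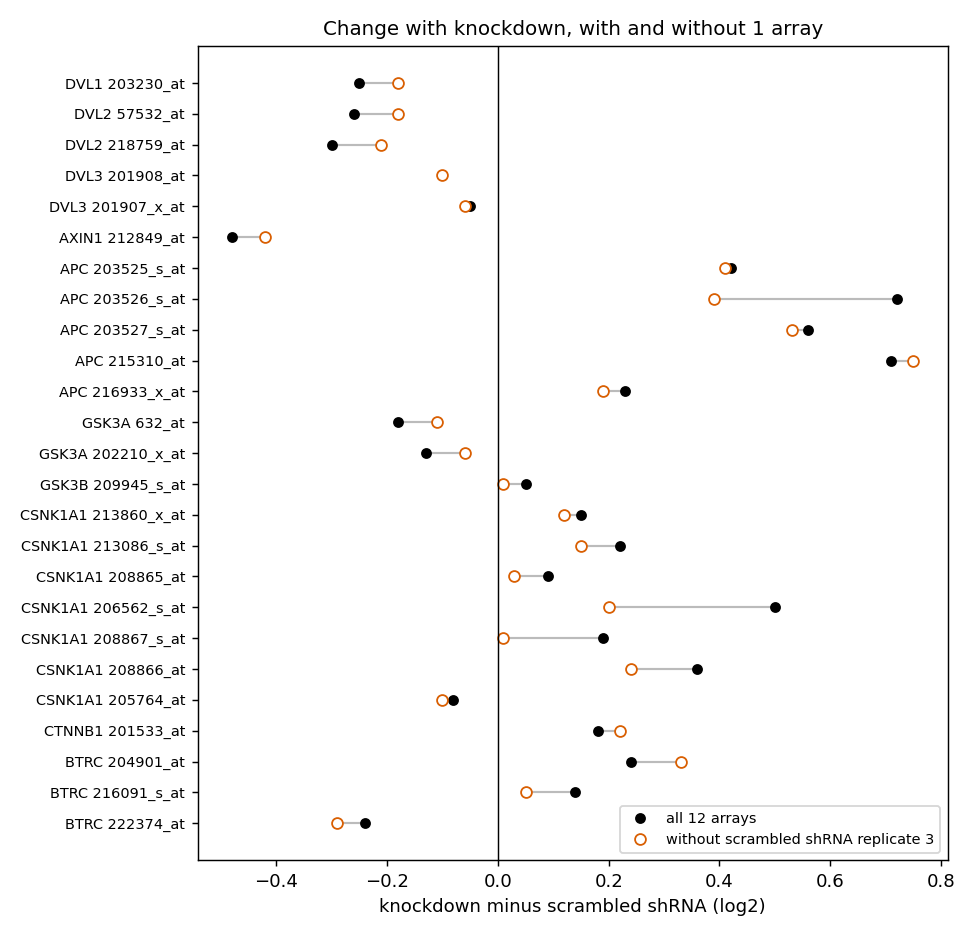
Knockdown minus scrambled shRNA in log2 (horizontal axis) for each of the 25 probe sets (vertical axis), with all 12 arrays (filled) and without scrambled shRNA replicate 3 (open). AXIN1 goes from -0.48 to -0.42 and APC 203525_s_at from 0.42 to 0.41, while APC 203526_s_at goes from 0.72 to 0.39 and CSNK1A1 206562_s_at from 0.50 to 0.20.

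Other genes of the pathway moved in both directions, with medians near 0. Of 83 listed kinases, Dishevelled-binding proteins, ligase and phosphatase subunits and beta-catenin partners, 68 were measured, each by its brightest probe set. With overexpression 4 rose and 1 fell, against 6.98% of all genes that passed, and with knockdown 9 rose and 6 fell, against 14.0%. By direction, 432 of all 11963 genes rose and 403 fell with overexpression, and 1052 rose and 625 fell with knockdown. The median change over the 68 was -0.01 and 0.02, where that of all genes was 0.00 and -0.01. Between the controls 6 were higher and 12 lower with scrambled shRNA, against 31.5% of all genes that passed, 1935 higher and 1833 lower.

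Of 13 Dishevelled-binding proteins, 2 rose and 0 fell with overexpression, where 432 and 403 of all 11963 genes did. With knockdown 4 rose and 1 fell, where 1052 and 625 of all genes did. ARRB1, which encodes the adaptor beta-arrestin 1, had means of 8.56, 9.18, 8.93 and 8.55 in empty vector, overexpression, scrambled shRNA and knockdown. It rose by 0.62 with overexpression (SE 0.0614, adjusted p = 9.98e-05) and fell by 0.38 with knockdown (adjusted p = 0.00174), and both calls held without each array. FRAT1, a GSK3-binding inhibitor, rose by 0.31 with overexpression (adjusted p = 0.0337), a call that 5 of 6 arrays could end. VANGL1, a planar polarity membrane protein, rose by 0.72 with knockdown (SE 0.138, adjusted p = 0.00456), held without each array, and stood at -0.46 with overexpression (adjusted p = 0.0685). VANGL1 means were 7.38, 6.92, 6.59 and 7.31 in the same group order, lowest with scrambled shRNA. Its call between scrambled shRNA and empty vector also held without each array (limma, adjusted p at most 0.00773). DAAM1, a formin that binds Dishevelled, rose by 0.38 with knockdown (adjusted p = 0.0256), a call that 4 of 6 arrays could end, scrambled shRNA replicate 3 among them. DAAM1 means were 7.91, 7.83, 7.53 and 7.91, again lowest with scrambled shRNA and alike in empty vector and knockdown.

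Of 25 scaffold, phosphatase and ligase partners, 1 rose and 1 fell with overexpression, where 432 and 403 of all 11963 genes did. With knockdown 3 rose and 1 fell, where 1052 and 625 of all genes did. CUL1, the cullin of the ligase that BTRC belongs to, had means of 9.52, 9.29, 8.91 and 9.48 in the same group order. It rose by 0.57 with knockdown (SE 0.0607, adjusted p = 0.000106), held without each array, and fell by 0.22 with overexpression (adjusted p = 0.0475), a call that any of the 6 arrays could end. Scrambled shRNA minus empty vector was -0.61 for CUL1 (adjusted p = 3.16e-05). PPP2R5A, a regulatory subunit of protein phosphatase 2A, rose by 0.33 with overexpression (adjusted p = 0.00432), also without each array. RNF146, a ubiquitin ligase that targets Axin, rose by 0.62 with knockdown (adjusted p = 0.0201), a call lost without scrambled shRNA replicate 3 or knockdown replicate 1 (adjusted p up to 0.0827). RNF146 means were 6.60, 6.42, 6.10 and 6.73 in the same group order, lowest with scrambled shRNA. PPP2R1B, a scaffold subunit of the same phosphatase, fell by 0.22 with knockdown (adjusted p = 0.0443), and 5 of 6 arrays could end that call.

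Of 9 kinases, 0 rose and 2 fell with knockdown, where 1052 and 625 of all 11963 genes did. The 2 kinases were PRKX, which fell by 0.36, and CSNK2A2, a casein kinase 2 catalytic subunit, which fell by 0.25 (adjusted p = 0.0226 and 0.0406). These were calls that 3 and 5 of the 6 arrays could end. In empty vector, overexpression, scrambled shRNA and knockdown, PRKX means were 7.26, 7.46, 7.64 and 7.27. CSNK2A2 means were 9.54, 9.68, 9.89 and 9.64, so scrambled shRNA was the highest group for both kinases. Of 21 beta-catenin partners, 1 rose with overexpression, where 432 of all genes did. With knockdown 2 rose and 2 fell, again beside 1052 and 625 of all genes. LEF1, a DNA-binding partner of beta-catenin, rose by 0.28 with overexpression (adjusted p = 0.0116), a call lost without overexpression replicate 2 (adjusted p = 0.0539), and fell by 0.24 with knockdown (adjusted p = 0.0141). The corepressor genes TLE3 and TLE2 differed in opposite directions between knockdown and scrambled shRNA, by 0.38 and -0.39 (adjusted p = 0.00753 and 0.0109), and both held without each array. In the same group order, TLE3 means were 8.32, 8.07, 7.75 and 8.13, and TLE2 means 8.44, 8.50, 9.11 and 8.72. Scrambled shRNA was thus the extreme group for both, and knockdown lay between it and empty vector. Calls of both between scrambled shRNA and empty vector also held without each array.

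**Figure D5:**
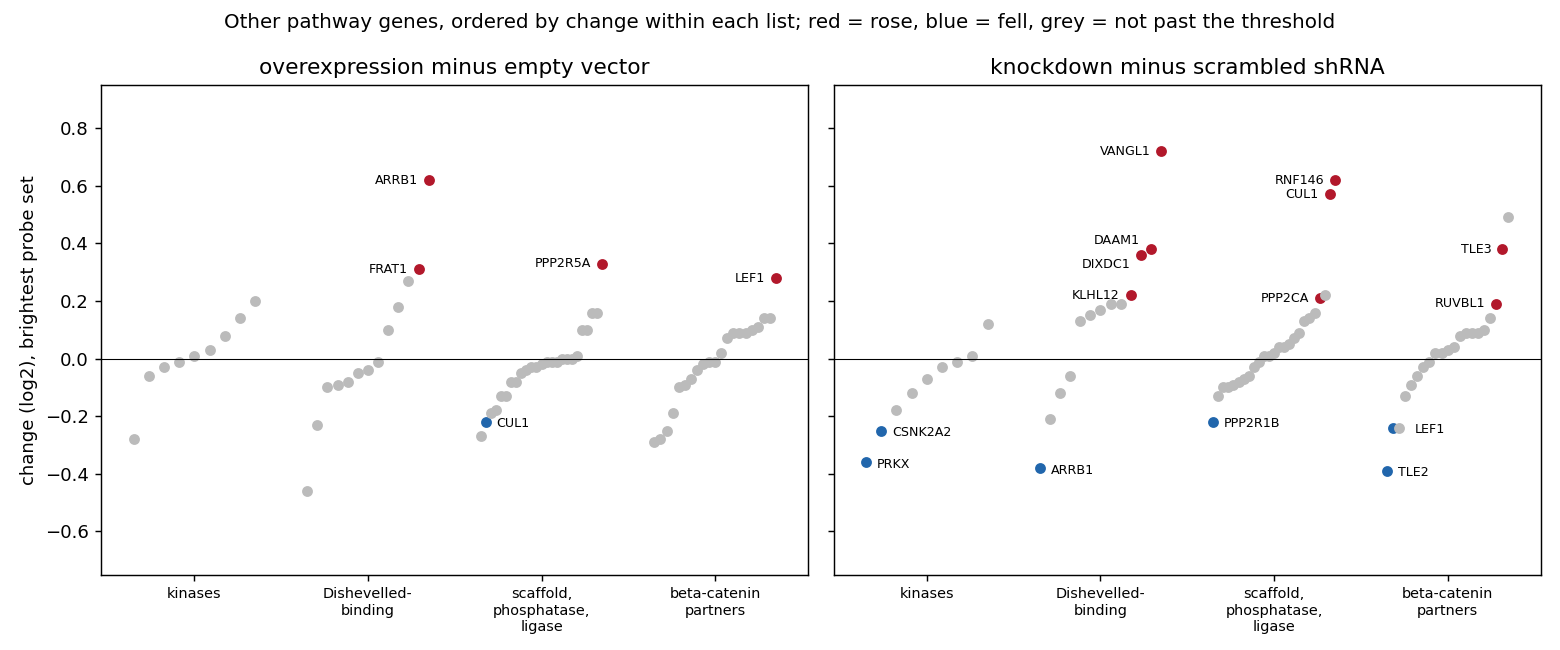
Change in log2 (vertical axis) of 68 other pathway genes in 4 lists (horizontal axis), ordered by change within a list, with overexpression, left, and knockdown, right; red marks a rise and blue a fall past the threshold. ARRB1 is the highest point on the left (0.62) and a fall on the right (-0.38), and VANGL1, RNF146 and CUL1 lead on the right (0.72, 0.62 and 0.57).

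The genes whose pattern over the 12 arrays was most like that of a member were found by the root mean square difference of log2 values centred on each probe set's mean, among probe sets of genes outside the complex. For AXIN1 they were DELE1 and SP2, at 0.0535 and 0.0637 log2, where the median over all candidate probe sets was 0.249. For APC they were ZNHIT6 and PHKB, at 0.0582 and 0.0594, with a median of 0.246. For CTNNB1 they were KLHL22 and DUS1L, at 0.0423 and 0.0437, and for CSNK1A1 FUBP1 and DCTPP1, at 0.0296 and 0.0321. For DVL2 they were ARMC7 and ACYP1, at 0.031 and 0.0538, and for BTRC ARL3 and GUCY1B1, at 0.0523 and 0.0614. For GSK3A they were NT5E and EPM2A, at 0.0629 and 0.067, and for GSK3B ERCC6L and CCNK, at 0.0443 and 0.059.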

How the data were processed

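Total RNA (500 ng) was labelled as biotinylated cRNA and hybridised to Affymetrix 3' expression arrays, per the labels' protocols. The authors deposited 1 value per probe set and array, made with Affymetrix Expression Console per the submitters' processing notes. For its version, the summarisation method and a genome build, nothing is stated in the labels. The deposited values were taken as log2 because they run from 2.07 to 14.4 with array medians of 6.65 to 6.71, and they were not normalized again.

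Control probe sets (62 of 22277) were left out. Of the 22215 tested, 19064 carried 1 symbol in the platform annotation, 1043 several and 2108 none, and only the first kind was named. Limma 3.58.1 in R 4.3.3 was fitted with 1 coefficient per group over all 12 arrays (lmFit and eBayes, two-sided, 8 residual degrees of freedom). P-values were adjusted by the Benjamini-Hochberg method over all probe sets, separately for each of 5 comparisons, and called at an adjusted p under 0.05. No fit dropped or imputed a value. The brightest probe set, by mean over 12 arrays, stood for a gene, and pathway genes were tested by it over 11963 genes. Named were all member probe sets, up to 3 called pathway genes per list and comparison with the largest changes, and the 2 most alike genes for each member called anywhere. The members and lists were chosen with earlier results of these data known. Alternatives were other normalizations, a filter on low values, other probe set rules, other priors and weights, fewer arrays, a replicate block and each array left out, and those for pathway genes were added after seeing the data. The fit was tested on simulated data. Promoters came from RefSeq tables, and plots were drawn with matplotlib 3.10.9.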

Additional observations from a re-analysis of the deposited data

How the results depend on the processing

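No value changed sign past the threshold under the alternatives run. For the member values, 79 lost a call and 63 gained one. A further 17 stayed uncalled but moved by more than the spread between replicates, and the other 1671 also kept their side of the threshold. Leaving out 1 array at a time gave 410 to 599 calls over all probe sets with overexpression (931 with all arrays) and 0 among the members (2). Over the fits that left out 1 array, knockdown against scrambled shRNA gave 1308 to 1963 calls (2184) and 3 to 6 members (4), and the difference of the effects 2449 to 3366 (3316) and 5 to 8 (7). The controls gave 3975 to 5796 (6157) and 7 to 14 (15), and knockdown against empty vector 97 to 678 (720) and 0 to 1 (0). Its lowest count over all probe sets came without empty vector replicate 2, and the 1 member call, APC 216933_x_at, without knockdown replicate 1.

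With overexpression, quantile normalization and the filter that left out the 40% of probe sets with the lowest mean each gave 4 members, beside 1167 of 22215 and 1320 of 13329 probe sets, and array weights gave 5 members and 1852 probe sets. The filter kept 21 members. With knockdown against scrambled shRNA the filter gave 9 members, a trended robust prior 9 and array weights 7, beside 2953 of 13329, 2963 and 2876 probe sets (4 and 2184 as reported). Only the 6 arrays compared gave 597 calls with overexpression, 1055 with knockdown and 205 for knockdown against empty vector. Between the controls they gave 8 members, beside 4937 of 22215 probe sets. The brightest probe set per gene gave 3 members beside 2442 of 11963 genes for the difference of the effects, and 6 members beside 3768 genes between the controls. The mean per gene gave 4 members beside 2382 genes and 7 beside 3834, with fewer features tested. For knockdown against empty vector the mean per gene gave 447 calls, the trended robust prior 1211, and array weights 2340 with 2 members. The cause of these shifts was not tested apart from the smaller number of features or arrays.

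The main fit did not pair the samples by replicate number. Same-numbered empty vector and overexpression arrays had correlated deviations of 0.25, -0.00813 and 0.304, and scrambled and knockdown arrays of 0.30, -0.0563 and 0.0668. Over all pairs of groups, the correlation was 0.0606 to 0.379 for same-numbered replicates 1 and 3, and -0.107 to 0.000852 for replicate 2. Replicate 1 against replicate 3 of another group gave -0.363 to 0.0126. So part of the spread went with the replicate number, and its source was not tested. With the replicate block the members called were 2, 5, 8, 15 and 0 and the probe sets 978, 2540, 3708, 6729 and 938, for overexpression, knockdown, the difference of the effects, the controls and knockdown against empty vector. Each of these probe set counts was above that of the main fit. The block ended the calls of GSK3A 202210_x_at between the controls and CSNK2A2 with knockdown (limma, adjusted p = 0.0521 and 0.0518), and of CREBBP for the difference of the effects (0.0513). It added APC 203526_s_at with knockdown (0.0354), BTRC 216091_s_at for the difference of the effects (0.0234) and CSNK1A1 213086_s_at between the controls (0.0365). With 3 arrays a group, changes near 0.3 log2 with overexpression lay close to the threshold.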
